A study of Mus musculus with 8 samples.

Results

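Arachidonic acid is a fatty acid stored in membrane phospholipids. Once a phospholipase has released it, lipoxygenase and cyclooxygenase enzymes turn it into leukotrienes and prostaglandins. Mast cells are known for making cysteinyl leukotrienes and prostaglandin D2 when their IgE receptors are crosslinked, and these lipids constrict airways and make vessels leak. The pathway was followed through 10 genes, chosen by symbol among the 24059 symbols listed in the count data, of which all 10 were listed. *Pla2g4a* releases arachidonate. *Alox5*, *Alox5ap*, *Ltc4s* and *Lta4h* form leukotrienes. *Ptgs1*, *Ptgs2* and *Hpgds* lead to prostaglandin D2, and *Ptges* and *Tbxas1* to prostaglandin E2 and thromboxane. Of these, 9 had enough counts to be tested among 14934 genes, and *Ptges* had not.

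Bone marrow–derived mast cells (BMMCs) of C57BL/6 mice aged 6 to 8 weeks were grown with IL-3 for no less than 4 weeks. They then received Cas9-gRNA ribonucleoproteins (RNPs), either against *Zc3h12a*, the gene of the RNase Regnase-1 (genotype given as Zc3h12a KO), or with a non-targeting scrambled guide (given as Zc3h12a WT). After 1 more week the resting cells, edited in bulk and not cloned, were sequenced, with replicates 1 to 4 for each RNP. The cells came from 4 mice, so samples of the same number were treated as a pair, although the labels do not say that a number marks a mouse.

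The total count was 19610240 to 33986762 per sample after scrambled RNP and 23712029 to 28564062 after *Zc3h12a* RNP. The targeted *Zc3h12a* mRNA was at 24.9 to 39.3 CPM (read counts relative to the normalized size of the library) after scrambled RNP and 26.8 to 41.1 CPM after *Zc3h12a* RNP, higher in 2 pairs and lower in 2, so it gives no check of the labels. Defining mast cell markers were high in all 8 samples, among them *Kit*, the stem cell factor receptor, at 2432 to 3926 CPM, and *Fcer1a*, the IgE-binding chain of the IgE receptor, at 2064 to 2919.8 CPM. Among 14 mast cell marker symbols, 1 (*Mcpt5*) was not listed. It is an older symbol of *Cma1*, which was on the same list and was at 7278 to 10074 CPM. *Tpsab1* stayed under 1 CPM and *Mcpt4* was at 2.24 to 7.94 CPM. On the first principal component of log2 CPM over the 14934 tested genes, which held 65.7% of the variance, scrambled RNP replicate 2 lay farthest out (score -121) and scrambled RNP replicate 4 lay at the other end (74.7).

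The first comparison set the members' levels side by side, as CPM per kilobase (kb) of the Ensembl canonical transcript, and the order ran over several powers of 10. *Alox5*, the 5-lipoxygenase that makes leukotriene A4, had by far the highest level at 1013 ± 88.0 CPM per kb (mean ± SD over 8 samples). Only 30 of 14384 tested genes with a known length had a higher one. *Tbxas1*, the thromboxane A2 synthase, followed at 199 ± 25.0 CPM per kb, and *Alox5ap*, the FLAP protein that presents arachidonate to 5-lipoxygenase, at 132 ± 18.6 CPM per kb. The ranges of these 3 genes over the 8 samples did not overlap. *Lta4h*, the hydrolase that makes leukotriene B4, was at 88.5 ± 10.6 CPM per kb, and its range overlapped that of *Alox5ap*. *Ltc4s*, the glutathione-conjugating synthase of leukotriene C4, was at 38.3 ± 7.30 CPM per kb and overlapped with *Hpgds*, the hematopoietic prostaglandin D2 synthase, at 31.0 ± 3.90 CPM per kb.

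Lower in the order, each neighbour overlapped the next as far down as *Ptgs2*. *Ptgs1*, the constitutive cyclooxygenase, was at 27.0 ± 8.71 CPM per kb. *Pla2g4a*, the cytosolic phospholipase A2, was at 13.8 ± 4.25 CPM per kb. *Ptgs2*, the inducible cyclooxygenase, was at 5.89 ± 5.40 CPM per kb and ran from 0.0601 to 16.6 CPM per kb. *Ptges*, the inducible prostaglandin E synthase on chromosome 2 (30779483 to 30820196, GRCm39, minus strand), had 17 counts in all samples together, with 0 to 4 counts in a sample, and stood apart below all other members. In *Zc3h12a* RNP replicate 4 it had 0 counts, which allows up to 3 counts or 0.0974 CPM. The order depends on the length used. With the union of all annotated exons, a length chosen as an alternative after the values were seen, *Alox5* stayed first at 696 CPM per kb, but *Alox5ap* (95.4 CPM per kb) came before *Tbxas1* (31.9 CPM per kb), and *Lta4h* came down to 16.6 CPM per kb, below *Ltc4s* (24.4) and *Ptgs1* (19.9).

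**Figure D1:**
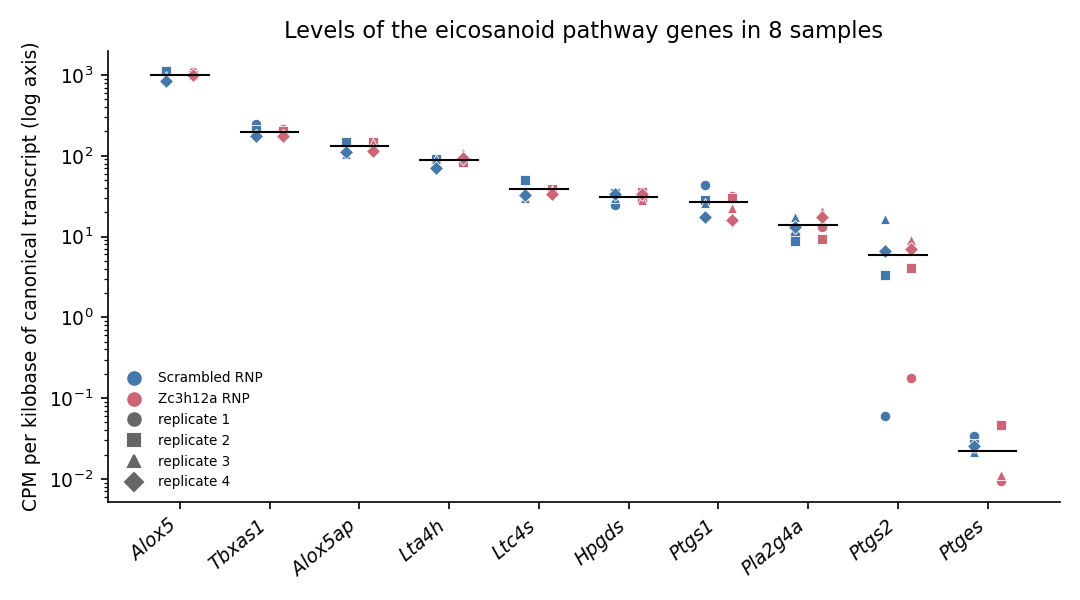
CPM per kb of canonical transcript (log axis) of the 10 members in each of the 8 samples, with scrambled RNP in blue, *Zc3h12a* RNP in red, a marker shape per replicate number and a black line at the mean. *Alox5* lies near 1013 CPM per kb in every sample, *Ptgs2* is spread from 0.0601 to 16.6 CPM per kb, and *Ptges* lies lowest (its sample with 0 counts cannot be drawn on a log axis).

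The second comparison asked whether *Zc3h12a* RNP changed any member. None of the 9 tested members was called at an adjusted p at or under 0.05 and a log2 fold change beyond 0.5 (quasi-likelihood test in edgeR, blocked by replicate number and adjusted by Benjamini-Hochberg over all 14934 genes). The background was no larger, since 0 genes in all (0%) were called. DESeq2 with the same block called 60 genes and limma-trend 1 gene, with 0 members in either. At an unadjusted p at or under 0.05 and any fold change, 922 genes passed (6.17%), among them 1 member, *Pla2g4a*. The members' fitted log2 fold changes ran from -0.18 to 0.27 with a median of 0.034, beside a median of 0.038 for all genes tested. For 8 of the 9 the 95% interval lay within 0.5 in both directions, and for *Ptgs2* it did not. In bulk RNA, fewer cells that carry a transcript and less of it per cell cannot be told apart.

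*Pla2g4a* lies on chromosome 1 (149705369 to 149837053, GRCm39, minus strand). It was at 30.3, 25.4, 49.5 and 37.1 CPM in scrambled RNP replicates 1 to 4, and at 37.8, 26.7, 58.6 and 50.1 CPM in *Zc3h12a* RNP replicates 1 to 4. The *Zc3h12a* RNP sample was the higher one in all 4 pairs, while the groups overlapped (35.6 ± 10.4 and 43.3 ± 14.0 CPM, mean ± SD, n = 4 each). The fitted log2 fold change was 0.27 (SE 0.086, 95% interval 0.068 to 0.47), and its p in edgeR was 0.0155 before and 0.663 after adjustment. Being higher in all pairs held for 744 genes (4.98%) and 2 members, *Pla2g4a* and *Alox5ap*. Being lower in all pairs held for 1276 genes (8.54%) and 0 members.

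The leukotriene genes had fitted log2 fold changes from -0.11 to 0.14, with 95% intervals that lay between -0.42 and 0.39. *Alox5* (chromosome 6, 116387032 to 116438139, minus strand) was at 3068, 3151, 2773 and 2353 CPM after scrambled RNP and 3049.8, 2844, 2867 and 2796 CPM after *Zc3h12a* RNP. Its log2 fold change was 0.035 (95% interval -0.16 to 0.23), with 2 pairs higher and 2 lower, and was 0.16 without replicate 2 and -0.036 without replicate 4. The lowest of the 8 samples was scrambled RNP replicate 4, and the other 7 lay close together. *Alox5ap* (chromosome 5, 149196003 to 149227762, plus strand) was at 387, 418, 291 and 312 CPM after scrambled RNP and 405, 418, 399 and 321 CPM after *Zc3h12a* RNP. Its log2 fold change of 0.14 (95% interval -0.09 to 0.37) came mostly from pair 3, where the difference was 0.45 on the log2 scale, against 0.064, 0.00038 and 0.045 in pairs 1, 2 and 4. The fitted value was -0.017 without replicate 3, 0.25 without replicate 2 and 0.17 without replicate 4.

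*Ltc4s* (chromosome 11, 50127288 to 50129443, minus strand) was at 32.3, 32.7, 19.8 and 21.3 CPM after scrambled RNP. After *Zc3h12a* RNP it was at 24.0, 25.5, 24.8 and 21.9 CPM. The scrambled RNP samples thus fell into a high pair (replicates 1 and 2) and a low pair, and all *Zc3h12a* RNP samples lay between them. Pairs 1 and 2 were lower by -0.43 and -0.36 on the log2 scale, pairs 3 and 4 were higher by 0.32 and 0.039, and the fitted log2 fold change was -0.11 (95% interval -0.42 to 0.20). Its sign turned without replicate 1 (0.043) and without replicate 2 (0.035). *Lta4h* (chromosome 10, 93289210 to 93320749, plus strand) was at 169, 188, 188 and 146 CPM and at 178, 171, 221 and 194 CPM in the same order of groups. It was lower in pair 2 alone, with a log2 fold change of 0.14 (95% interval -0.096 to 0.39), which was 0.30 without replicate 2 and 0.057 without replicate 4. Adjusted p-values of these 4 leukotriene genes lay between 0.960 and 0.963 (edgeR's quasi-likelihood test).

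In the prostaglandin branch, *Ptgs1* (chromosome 2, 36120438 to 36142287, plus strand) was at 125, 81.5, 74.3 and 50.9 CPM after scrambled RNP and at 90.1, 87.2, 64.6 and 46.3 CPM after *Zc3h12a* RNP. Replicate 4 was lowest and replicate 1 highest in both groups, and the groups overlapped. Its log2 fold change was -0.18 (95% interval -0.42 to 0.063), with 3 pairs lower (adjusted p = 0.957 in edgeR). Most of it came from pair 1 (-0.47), and without replicate 1 it was -0.036. *Hpgds* (chromosome 6, 65094001 to 65121983, minus strand) was at 94.6, 132, 115 and 130.0 CPM after scrambled RNP and 108, 136, 108 and 129.8 CPM after *Zc3h12a* RNP. Its log2 fold change was 0.034 (95% interval -0.15 to 0.22), with 2 pairs higher and 2 lower (adjusted p = 0.962 in edgeR).

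*Tbxas1* (chromosome 6, 38852203 to 39061523, plus strand) was at 499, 423, 377 and 351 CPM after scrambled RNP and 438, 409, 371 and 352 CPM after *Zc3h12a* RNP. The replicate numbers had the same order in both groups, and the log2 fold change was -0.063 (95% interval -0.24 to 0.12, adjusted p = 0.960 in edgeR). Its gene overlaps *Hipk2* on the opposite strand, which had 1401 to 2614 counts, and since the strand setting of the counting is not given, reads in the overlap cannot be assigned with certainty.

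**Figure D2:**
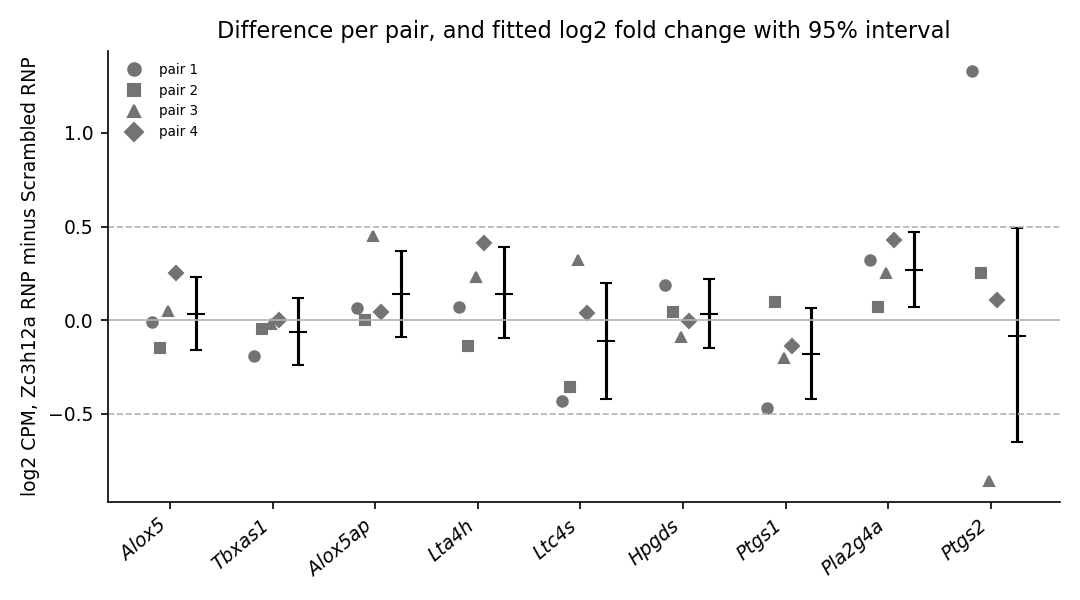
Difference in log2 CPM between *Zc3h12a* RNP and scrambled RNP for the 9 tested members, with a grey marker per pair, the fitted log2 fold change and its 95% interval in black, and dashed lines at 0.5 in both directions. *Pla2g4a* is above 0 in all 4 pairs, and the pairs of *Ptgs2* run from -0.86 to 1.33.

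*Ptgs2* had the widest spread of the members and lies on chromosome 1 (149975194 to 149983978, plus strand), 138 kb from *Pla2g4a*. Its mRNA is known to be induced quickly by activation and to be short-lived, and Regnase-1 is known to cleave mRNAs at stem-loops with a pyrimidine-purine-pyrimidine loop in their 3′ ends. The sequences shown here are the stretches of *Ptgs2* with letters that bear on this. In the first window of GRCm39, chr1:149981545-149981574 (plus strand), capitals mark ATTTA motifs, of which the window holds 4 when overlapping ones are counted. In the second, chr1:149983209-149983221 (plus strand), capitals mark the loop of the 1 stretch with an unbroken stem of 5 A-T or G-C pairs around such a loop. G-U pairs were not counted, in *Ptgs2* or in the other genes.
Ptgs2 AU-rich window: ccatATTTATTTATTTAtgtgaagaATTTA
Ptgs2 stem-loop: taaacTATgttta
Over its 2445 bases, the *Ptgs2* 3′ end held 14 ATTTA motifs. In the first 2445 bases of the 3′ ends of 3757 genes at least that long, the median was 4, and 46 genes (1.22%) had as many. A stem-loop of 5 or more pairs is less particular, since 1335 of these genes (35.5%) held one. With 6 or more pairs *Ptgs2* had 0 and 13.9% of the genes had one, and the minimum of 5 was set after that. These are matches of letters and no measure of binding or decay.

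The RefSeq promoter of *Ptgs2* (GRCm38.p6, 250 bases before to 50 after the start) held a cyclic AMP response element half-site (TGACG, searched on both strands) and an E-box (CACGTG), which overlap by 2 bases. Both motifs lie downstream of the start annotated by RefSeq, at offsets of 13 and 16 bases, and no other start site was examined. They are shown because no other member's promoter held either, among 10 promoters found for 9 members. The windows are chr1:150100032-150100061 and chr1:150100035-150100064, both written on the plus strand with the motif in capitals, and the half-site reads TGACG on the minus strand.
Ptgs2 half-site: gagtcaccactaCGTCAcgtggagtccgct
Ptgs2 E-box: tcaccactacgtCACGTGgagtccgcttta
Of all 32851 promoters in the table, 20.8% held the half-site and 7.15% the E-box. Among 25 promoters of genes induced by mast cell activation, 15 (60%) held the half-site and 3 (12%) the E-box. That gene list was chosen with earlier results of these data known. GATA motifs (GATA preceded by A or T and followed by A or G, both strands) stood in the promoters of 2 members, *Alox5* and *Pla2g4a*, and in 29.8% of all promoters.

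Between samples, *Ptgs2* went from a few counts to a clear level. After scrambled RNP it was at 0.285, 16.1, 78.9 and 31.3 CPM in replicates 1 to 4, and after *Zc3h12a* RNP at 0.832, 19.1, 43.4 and 33.7 CPM. The order of the replicate numbers was the same in both groups, with replicate 1 lowest and replicate 3 highest, while the groups overlapped. Replicate 1 had 9 counts after scrambled RNP (exact Poisson 95% interval 4.12 to 17.1) and 24 counts after *Zc3h12a* RNP (15.4 to 35.7), intervals that cover counting error only. The other 6 samples had 441 to 2003 counts. In log2 CPM, pairs 1 to 4 differed by 1.33, 0.25, -0.86 and 0.11. The fitted log2 fold change was -0.084 (SE 0.24, 95% interval -0.65 to 0.49, adjusted p = 0.967 in edgeR). Against the sign of the fitted value, *Ptgs2* was the higher one in pairs 1, 2 and 4. It was 0.27 without replicate 3. A non-coding gene on the opposite strand, *Ptgs2os*, had 1 to 16 counts.

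The third comparison was between replicate numbers, by the F test of the 3 block coefficients in the same edgeR fit. It called 3 of 9 members (33.3%) at an adjusted p at or under 0.05, beside 4181 of 14934 genes (28.0%), a share near the background. Leaving out a replicate number left 2 of 9 members (22.2%) called each time, beside 9.62% of genes without replicate 1, 16.1% without replicate 2, 9.97% without replicate 3 and 19.3% without replicate 4. With limma-trend, *Hpgds* was called too (adjusted p = 0.0494). The called members were *Ptgs2* (adjusted p = 0.00110), *Pla2g4a* (0.00466) and *Ptgs1* (0.00682, edgeR's quasi-likelihood F test). For the others the adjusted p lay between 0.0737 (*Hpgds*) and 0.489 (*Lta4h*). *Ptgs2* was called in all 11 settings in which it could be run. *Pla2g4a* was not called without replicate 2 (0.0596) or without replicate 3 (0.0691), nor *Ptgs1* without replicate 1 (0.0859) or without replicate 4 (0.0533, all edgeR's F test).

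The size of the spread set *Ptgs2* apart. Its mean log2 CPM differed by 6.68, a 103-fold range, between the lowest and the highest replicate number. Among the 9668 genes with a mean log2 CPM above 2 the median was 0.60, and 1 gene had a larger span, *Nr4a3* (7.75, 215-fold), a nuclear receptor gene induced at once by activation. The genes next below *Ptgs2* were *Nr4a1* (6.41), *Atf3* (6.24) and *Nr4a2* (5.91). *Ptgs1* spanned 1.13 (2.18-fold) and *Pla2g4a* 1.04 (2.06-fold), and 11.1% and 14.3% of the genes had a larger span. The remaining members spanned 0.25 (*Alox5*) to 0.42 (*Ltc4s*), below the median of all genes.

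**Figure D3:**
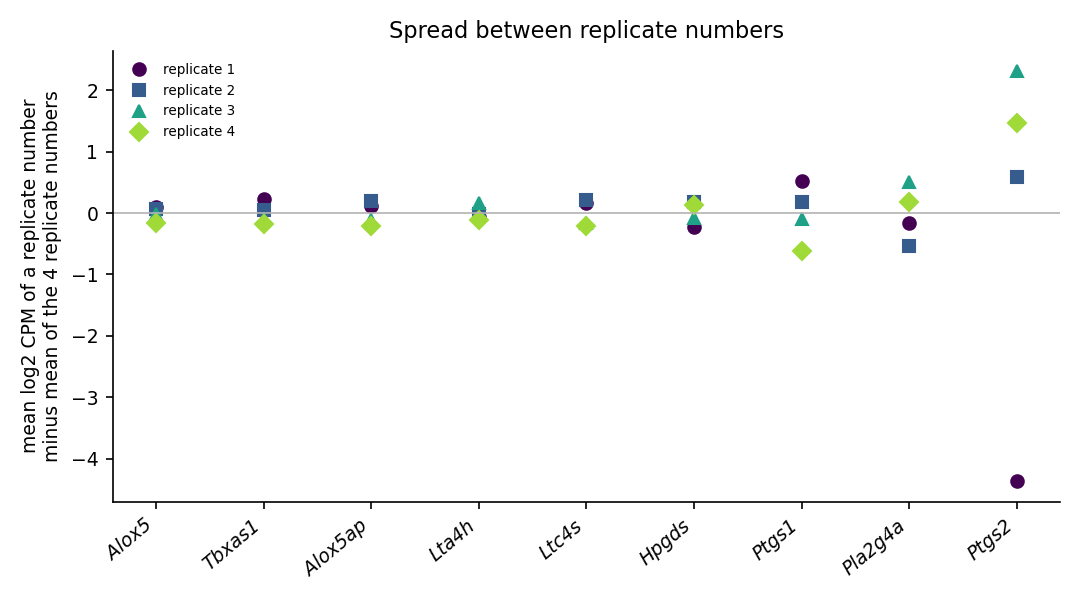
Mean log2 CPM of each replicate number (both RNPs together) minus the mean of the 4 numbers, for the 9 tested members. *Ptgs2* spans 6.68 with replicate 1 far below the others, *Ptgs1* and *Pla2g4a* span 1.13 and 1.04, and the remaining 6 members span at most 0.42.

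The replicate numbers were ordered differently for *Ptgs1* than for *Pla2g4a* and *Ptgs2*. *Ptgs1* was highest in replicate 1 and lowest in replicate 4, *Pla2g4a* was highest in replicate 3 and lowest in replicate 2, and *Ptgs2* was highest in replicate 3 and lowest in replicate 1. The part of *Ptgs2* in the sum of both cyclooxygenase mRNAs, per kb, was therefore uneven. It was 0.138%, 10.6%, 39.1% and 27.1% in scrambled RNP replicates 1 to 4 and 0.555%, 11.7%, 28.9% and 30.6% in *Zc3h12a* RNP replicates 1 to 4. *Ptgs1* thus made up most of the cyclooxygenase mRNA in all 8 samples. The groups (19.2 ± 17.3% and 17.9 ± 14.4%, mean ± SD, n = 4 each) overlapped almost entirely.

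At the terminal enzymes, the ratio of *Hpgds* to *Ltc4s* per kb was 0.503, 0.695, 0.992 and 1.05 after scrambled RNP and 0.770, 0.918, 0.746 and 1.02 after *Zc3h12a* RNP. The ratio of these prostaglandin D2 and leukotriene C4 synthase mRNAs was higher in 2 pairs and lower in 2 after *Zc3h12a* RNP. With the union of exons as the length the ratio was 0.383 to 0.798. The ratio of *Alox5* to its partner *Alox5ap* was 6.71 to 9.41 over the 8 samples.

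The genes whose pattern over the 8 samples was most like that of *Ptgs2* were *Egr2* (Pearson's r = 0.999), *Nr4a1* (0.998) and *Egr3* (0.998), all immediate early transcription factors, among 9667 genes compared on log2 CPM. These correlations are a description, since the 8 samples carry 4 replicate numbers and are not independent if a number marks a mouse. Replicate 1 also weighs heavily on r. There the mean log2 CPM of *Ptgs2* was -0.81, from 9 and 24 counts, beside 4.14, 5.87 and 5.03 in replicates 2 to 4. *Egr2* was at 18.7, 289, 937 and 502 CPM after scrambled RNP and 43.1, 355, 691 and 524 CPM after *Zc3h12a* RNP, lowest in replicate 1 and highest in replicate 3 as *Ptgs2* was. *Nr4a1* was at 25.6, 827, 4277 and 1404 CPM after scrambled RNP and 45.6, 920.4, 1996 and 1427 CPM after *Zc3h12a* RNP. Of 21 genes induced by mast cell activation that were high enough to compare, 16 had an r with *Ptgs2* above 0.9 (median 0.966), beside 73 of all 9667 genes (0.755%, median -0.140). The list was chosen with earlier results of these data known, so its shares here are a description only. *Tnf*, the cytokine, was less like it (r = 0.807), with replicate 2 highest in both groups. Of the 24 activation genes tested, 21 (87.5%) differed between replicate numbers, beside 28.0% of all genes. For *Zc3h12a* RNP 0 of the 24 were called in edgeR, as were 0 of all 14934 genes. By fitted value, 14 were higher and 10 lower. *Tnf* was higher in all 4 pairs (log2 fold change 0.84, adjusted p = 0.424 in edgeR's quasi-likelihood test). *Nr4a3* was lower in all 4 (-0.75, adjusted p = 0.575 in the same test).

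**Figure D4:**
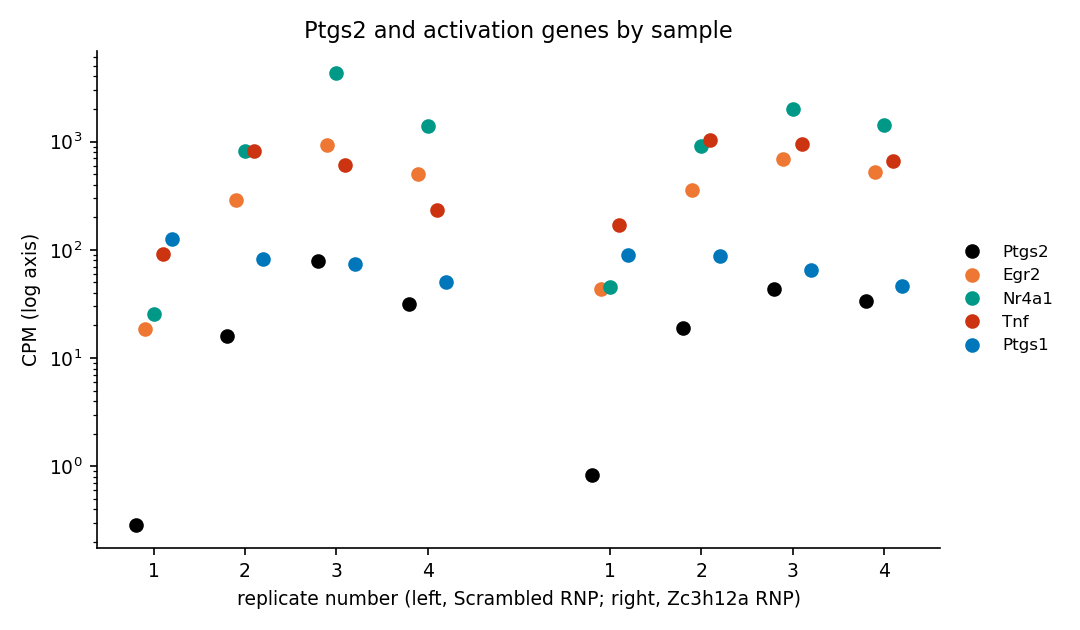
CPM (log axis) of *Ptgs2*, *Egr2*, *Nr4a1*, *Tnf* and *Ptgs1* by replicate number, with scrambled RNP on the left and *Zc3h12a* RNP on the right. *Ptgs2*, *Egr2* and *Nr4a1* are lowest in replicate 1 and highest in replicate 3 in both groups, and *Ptgs1* goes from 125 to 50.9 CPM after scrambled RNP and from 90.1 to 46.3 CPM after *Zc3h12a* RNP.

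For the other members, the most similar genes were of many kinds. *Ptgs1* was most like *Snhg6* (r = 0.969) and *Snhg20* (0.956), hosts of small nucleolar RNAs, and like *Tbxas1* (0.955), another member. *Ltc4s* was most like *Eef1a1* (0.991), a translation elongation factor, *Mospd1* (0.982) and *Eif3f* (0.980), a translation initiation factor. *Lta4h* was most like *Cks2* (0.989), a cell cycle regulator, *Tcf19* (0.962) and *Blmh* (0.956). *Alox5* was most like *Gusb* (0.987), a lysosomal glucuronidase, *Stk16* (0.985) and *Scin* (0.977), the actin-severing scinderin. *Pla2g4a* was most like *Thoc5* (0.986), *Alox5ap* like *Ten1* (0.977), *Hpgds* like *Tgfbrap1* (0.964), and *Tbxas1* like *Xbp1* (0.968), a transcription factor of the unfolded protein response.

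Around the members, 77 further genes of eicosanoid metabolism and signalling were taken from 7 lists, of which 70 were listed and 48 tested. None was called for *Zc3h12a* RNP (background 0 of 14934), 5 passed an unadjusted 0.05 (beside 6.17% of all genes), and 30 were higher and 18 lower, with a median log2 fold change of 0.12. Over all genes tested, 8635 were higher and 6299 lower, with a median of 0.038. Of the 48, 10 (20.8%) differed between replicate numbers, beside 28.0% of all genes.

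Upstream of the members, 8 of 17 listed other phospholipases A2 were tested, 6 higher and 2 lower. The lowest p among them was that of *Pla2g7*, the platelet-activating factor acetylhydrolase, which also had the highest level. It was at 756, 631, 380.2 and 491 CPM after scrambled RNP and 421, 523, 355 and 334 CPM after *Zc3h12a* RNP, lower in all 4 pairs, with a log2 fold change of -0.44 (SE 0.13, adjusted p = 0.610, edgeR's quasi-likelihood test). With DESeq2 the adjusted p was 0.0330 at -0.46, and with a replicate number left out the value ran from -0.61 to -0.27. Of 14 genes that put arachidonate back into phospholipids or act on cytosolic phospholipase A2, 8 were higher and 6 lower. Among these, *S100a10* was lower in all 4 pairs (log2 fold change -0.21, adjusted p = 0.753, edgeR's test). *Cotl1*, the coactosin-like protein that binds 5-lipoxygenase, was among the highest of the list per kb, with a log2 fold change of 0.13.

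Among enzymes related to the members, levels ranged widely. Of 4 listed other lipoxygenases, 2 were tested, *Alox8* at 2.25 to 7.00 CPM and *Aloxe3* at 0.133 to 1.14 CPM, with log2 fold changes of -0.33 and 0.34, and *Alox12* and *Alox15* had at most 0.0951 CPM. *Ptgds*, the lipocalin-type prostaglandin D2 synthase, had 0 counts in all 8 samples. *Ptges3*, the p23 cochaperone with prostaglandin E synthase activity, was at 85.9 to 154 CPM (log2 fold change 0.08), and *Cbr1*, a carbonyl reductase, at 9.01 to 16.6 CPM (-0.15). Among relatives of *Ltc4s*, *Mgst2*, which can also form leukotriene C4, was at 4.72 to 8.51 CPM and lower in all 4 pairs (log2 fold change -0.44, SE 0.17, adjusted p = 0.744, edgeR's test), and *Mgst3* was at 2.60 to 4.93 CPM (0.17).

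Downstream, *Abcc1*, which exports leukotriene C4, was at 215, 238, 160.2 and 136 CPM after scrambled RNP and 227, 252, 196 and 194 CPM after *Zc3h12a* RNP. All 4 pairs were higher, with overlapping groups and a log2 fold change of 0.24 (SE 0.097, adjusted p = 0.772, edgeR's test). *Ptgr2*, a prostaglandin reductase, had a log2 fold change of -0.027. Of 13 listed eicosanoid receptors, 9 were tested, 5 higher and 4 lower. *Ptger3*, the prostaglandin E2 receptor EP3, was at 300.0, 259, 306 and 328 CPM after scrambled RNP and 246, 213, 206 and 241 CPM after *Zc3h12a* RNP, groups that did not overlap. Its log2 fold change was -0.40 (SE 0.085, lower in 4 of 4 pairs), and its p in edgeR was 0.00191 before and 0.424 after adjustment. With DESeq2's Wald test the adjusted p was 0.0107, at a log2 fold change of -0.42 that is still under 0.5 in size. *Ltb4r2*, a leukotriene B4 receptor, had a log2 fold change of -0.08. In the other direction, the groups of *Ptgir*, another receptor of the list, did not overlap either. It was at 3.57 to 4.60 CPM after scrambled RNP and 5.48 to 6.62 CPM after *Zc3h12a* RNP. Its log2 fold change was 0.52 (higher in 4 of 4 pairs, adjusted p = 0.812 in edgeR's quasi-likelihood test). How many of all genes had groups that did not overlap was not counted.

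Markers of other cell types that use this pathway were measured beside these values. The summed level of 11 listed macrophage markers was 12.9 to 18.8 CPM after scrambled RNP and 15.3 to 18.6 CPM after *Zc3h12a* RNP, and 8 of them, *Csf1r* and the C1q genes included, stayed under 1 CPM in every sample. That of 5 listed neutrophil markers was at most 0.390 CPM. The platelet and megakaryocyte list, whose cells are known for thromboxane synthesis, summed to 2149.8 to 2516 CPM after scrambled RNP and 1788 to 2363 CPM after *Zc3h12a* RNP, carried by *Itga2b* (1261 to 2026 CPM) and *Gp1ba* (430.0 to 1042 CPM), while *Gp1bb*, *Gp9*, *Gp6* and *Treml1* stayed under 1 CPM. The B cell, T cell, eosinophil, dendritic cell and erythroid lists summed to at most 20.3 CPM each. The basophil list summed to 739.7 to 930.3 CPM after scrambled RNP and 684 to 845 CPM after *Zc3h12a* RNP. That sum was carried by *Cd200r3* (439 to 535 CPM) and *Fcgr3* (208 to 412 CPM). The other genes of the list were low, with *Mcpt8* at 1.43 to 8.51 CPM, *Prss34* at 0.905 to 2.25 CPM and *Itga2* under 1 CPM. None of the marker genes tested had an adjusted p at or under 0.05 for *Zc3h12a* RNP (edgeR's quasi-likelihood test), and their part in the members' levels was not tested.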

How the data were processed

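Poly(A) RNA of 8 BMMC samples was sequenced by the authors, who aligned the reads with HISAT2 2.2.1 to GRCm39 and counted them per gene with featureCounts 2.0.1 (FastQC 0.11.9 for quality). The deposited values are raw counts, whole numbers per gene symbol. The strand setting is not given in the sources used here, and the batch correction named in the methods was not applied to these counts.

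Counts were fitted with edgeR 4.0.16 in R 4.3.3 (TMM normalization, edgeR's low-count filter by group, quasi-likelihood test, replicate number as a block, which left 3 residual degrees of freedom per gene before moderation). A gene was called at an adjusted p at or under 0.05 (Benjamini-Hochberg over all 14934 genes) and a log2 fold change beyond 0.5. SEs are the size of the log2 fold change over the square root of F. CPM are TMM-normalized, and log2 CPM and pair differences used a prior count of 2. The fits were tested on simulated data. DESeq2 1.42.0, limma 3.58.1, other normalizations and filters, no block and leaving out each replicate number were alternatives. Python 3.11.15 with matplotlib 3.10.9 made the figures.

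Pairing comes from the study's design of 4 mice that each gave cells for both RNPs. After subtraction of the group means, samples that share a number correlated at 0.595, 0.075, 0.624 and 0.041 across all genes (different numbers up to 0.398), and at 0.756, 0.717, 0.728 and 0.719 over the 9668 genes with a mean log2 CPM above 2 (different numbers at most 0.137). Samples within a group differed by more than sampling noise (chi-square of at least 58.2 for each degree of freedom). P-values for *Zc3h12a* RNP rest on the spread of these samples that is left after group and replicate-number differences are taken out. Those of the F test weigh the replicate-number differences against that same remaining spread.

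GENCODE's GRCm39 annotation gave lengths and positions, and RefSeq (GRCm38.p6) gave the promoters. The members and gene lists were chosen with earlier results of these data known. Genes named are the members, *Zc3h12a*, in each list those called, the gene of lowest p and the 2 of highest CPM per kb, chosen activation and mast cell genes, and the 3 genes most like each member. The values of 1 gene that this rule picks are left out. *Nr4a3*, *Atf3*, *Nr4a2*, *Ptgds*, *Ptgir*, *Cma1*, *Alox12*, *Alox15* and the overlapping genes were named after their values were seen.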

Additional observations from a re-analysis of the deposited data

Results flagged for a closer look

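Among 62 groups of 4 samples examined for a sample far from the others, 4 were flagged by Dixon's ratio (the gap to the nearest sample over the whole range), where chance gives about 3.10. *Pla2g15*, the lysosomal phospholipase A2, was flagged in both groups for its highest sample, replicate 4, with a ratio of 0.845 after scrambled RNP (10.2, 7.86, 7.95 and 23.0 CPM) and 0.882 after *Zc3h12a* RNP (9.64, 9.45, 11.7 and 28.7 CPM). *Cotl1* was flagged for its lowest sample, *Zc3h12a* RNP replicate 4 (ratio 0.836, 485, 454, 455 and 296 CPM). *Zc3h12a* itself was flagged for scrambled RNP replicate 1 (ratio 0.846, 24.9 CPM beside 38.0, 37.1 and 39.3 CPM), its lowest control sample. None of the members was flagged.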

How the results depend on the processing

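The count of members called for *Zc3h12a* RNP was 0 under every alternative run, and so was that of the wider eicosanoid genes. Over all genes the count was 0 in the reported fit, with no replicate block, with upper quartile and with total counts, 1 with limma-trend, 1 with RLE size factors, 3 when every sample had to hold 10 counts, 40 without the low-count filter, 60 with DESeq2, and 0 to 137 when a replicate number was left out (137 without replicate 2, 2 without replicate 4). The count of genes that differed between replicate numbers was 2364 with RLE size factors and 1443 to 2878 with a number left out. The replicate block changed no call of a member in the *Zc3h12a* RNP comparison, where 0 genes in all were called with or without it. It did change p-values. That of *Pla2g4a* before adjustment was 0.0155 with the block and 0.312 without it (edgeR's quasi-likelihood test).

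The log2 fold change of *Ptgs2* turned positive with DESeq2 (0.031), limma-trend (0.21) and no low-count filter (0.01), and ran from -0.19 to 0.27 with a number left out. That of *Tbxas1* was 0.0046 with total counts. With a number left out, the range was -0.13 to 0.022 for *Tbxas1*, -0.036 to 0.16 for *Alox5*, -0.017 to 0.25 for *Alox5ap* and -0.31 to 0.043 for *Ltc4s*. Among the context genes, signs turned for *Ptgr2* (0.041 with total counts, 0.0071 with no filter, -0.14 to 0.067 with a number left out), *Aloxe3* (-0.09 with no replicate block, -0.18 to 0.92), *Ltb4r2* (-0.17 to 0.042) and *Ptges3* (-0.009 to 0.25). The cause was not tested. With the union of exons as the length, chosen after the values were seen, the mean ratio of *Hpgds* to *Ltc4s* over the 8 samples was 0.637 in place of 0.836. *Ptgs2* could not be fitted at 10 or more counts in every sample, since replicate 1 held 9. With 4 pairs, the 95% interval of *Ptgs2* still ran from a log2 fold change of -0.65 to 0.49.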

Other observations

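Among the genes induced by mast cell activation, *Dusp1*, a phosphatase of MAP kinases, had the lowest p for *Zc3h12a* RNP. It was at 74.1, 119, 257 and 513 CPM after scrambled RNP and 39.5, 97.9, 166 and 266 CPM after *Zc3h12a* RNP, lower in all 4 pairs, with a log2 fold change of -0.69 (SE 0.12, adjusted p = 0.401, edgeR's quasi-likelihood test). With DESeq2 the adjusted p was 3.0e-06, and without replicate 2 it was 0.00480 in edgeR's test. Its highest replicate number was 4, whereas that of *Ptgs2* was 3. The transcription factor *Junb* (668 to 4305 CPM, log2 fold change -0.21) and the early gene *Ier3* (834 to 2324 CPM, 0.17) had the highest levels per kb of that list.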
